A study of Homo sapiens with 4 samples.

Results

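The cytosolic ribosomal protein genes were examined as a set of promoters that nearly every dividing cell uses. Members were the protein-coding genes of GENCODE release 44 on chromosomes 1 to 22 and X whose symbol is RPL or RPS followed by a number and at most 1 letter, without the S6 kinases, the mitochondrial ribosomal proteins and Y-linked genes. This rule found 77 of 19962 coding genes, 46 of the large and 31 of the small subunit, on 21 chromosomes. The choice used symbols alone and no measured value.

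Open chromatin was mapped by ATAC-seq, in which a transposase inserts sequencing adapters into accessible DNA. The cells were MCF10A, a non-transformed line of human mammary epithelium, transduced with a tet-inducible TAZ-4SA, a constitutively active form of the Hippo pathway co-activator TAZ. The No Dox group was grown without doxycycline and the Dox group with 0.05 µg/mL doxycycline for 72 h, with 2 biological replicates each and 50000 cells per reaction. All groups carried the construct and no group of untransduced cells was part of the comparison, so the effect of doxycycline itself and that of TAZ-4SA cannot be told apart. The authors pooled the replicates of each condition before they called peaks, which leaves 1 peak list for each, with no replicate error and no test of any difference. Every interval given here is an exact Clopper-Pearson or Poisson-based interval of 95% and covers counting error only, except those of median percentiles. These are also of 95%, come from the ranks of the genes and cover the spread across genes, not across replicates. The depth of each library is unknown here, since the lists hold peaks and not read totals.

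Ribosomal proteins assemble with ribosomal RNA into the small subunit, which decodes mRNA, and the large subunit, which forms peptide bonds. Cells make them in matched amounts, and much of the control lies in translation, through a run of pyrimidines at the very start of the mRNA, the terminal oligopyrimidine tract or TOP, which responds to mTOR signalling. Their promoters are short, mostly without a canonical TATA box, and start transcription at a cytosine inside a pyrimidine stretch. Several members also act outside the ribosome, such as RPL5, RPL11 and RPL23, which can bind MDM2 and so stabilise p53.

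The start sites are shown for members with strong, weak or missing promoter peaks, because the sequence at the transcription start site (TSS) is what most of the set shares. Each line runs from 40 bases before the TSS of the canonical transcript to 20 bases from the TSS on, read on the gene's strand in hg38, with the run of C and T at the TSS in capitals. A line without capitals has no such run at its annotated TSS. The first 3 lines are members with strong peaks:
RPS29 (chr14:49586361-49586420, minus strand): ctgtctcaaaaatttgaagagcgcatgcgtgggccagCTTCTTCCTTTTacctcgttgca
RPS12 (chr6:132814529-132814588, plus strand): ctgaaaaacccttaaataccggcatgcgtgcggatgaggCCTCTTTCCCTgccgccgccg
RPL15 (chr3:23917092-23917151, plus strand): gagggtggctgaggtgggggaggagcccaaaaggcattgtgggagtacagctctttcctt
The next 4 lines are members with weak peaks:
RPL13 (chr16:89560642-89560701, plus strand): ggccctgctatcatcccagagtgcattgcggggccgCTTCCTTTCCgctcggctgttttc
RPS27 (chr1:153990722-153990781, plus strand): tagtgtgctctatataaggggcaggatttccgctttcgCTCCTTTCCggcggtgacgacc
RPL41 (chr12:56116593-56116652, plus strand): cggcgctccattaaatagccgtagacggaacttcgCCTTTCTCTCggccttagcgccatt
RPL4 (chr15:66504836-66504895, minus strand): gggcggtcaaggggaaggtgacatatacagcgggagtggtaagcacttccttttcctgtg
RPS3 and RPL23 had no promoter peak in either list, and RPS6 is shown as a TOP gene with a peak in both:
RPS3 (chr11:75399478-75399537, plus strand): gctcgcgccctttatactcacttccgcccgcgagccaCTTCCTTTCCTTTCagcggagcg
RPL23 (chr17:38853702-38853761, minus strand): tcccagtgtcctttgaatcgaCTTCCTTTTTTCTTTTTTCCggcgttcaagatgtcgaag
RPS6 (chr9:19380217-19380276, minus strand): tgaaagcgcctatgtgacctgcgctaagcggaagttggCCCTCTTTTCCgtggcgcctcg
The last 5 lines are RPL3, which had a peak in Dox alone, and 2 members beside their tissue-restricted paralogs, whose symbols end in L:
RPL3 (chr22:39319604-39319663, minus strand): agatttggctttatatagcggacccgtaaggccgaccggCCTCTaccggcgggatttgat
RPL10 (chrX:154398337-154398396, plus strand): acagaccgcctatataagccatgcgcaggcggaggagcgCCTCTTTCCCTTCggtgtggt
RPL10L (chr14:46651762-46651821, minus strand): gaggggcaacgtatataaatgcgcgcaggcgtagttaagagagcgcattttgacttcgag
RPL39 (chrX:119791611-119791670, minus strand): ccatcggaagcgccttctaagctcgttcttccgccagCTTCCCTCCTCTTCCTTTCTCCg
RPL39L (chr3:187139477-187139536, minus strand): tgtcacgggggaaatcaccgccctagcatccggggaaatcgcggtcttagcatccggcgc

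A 5′ TOP start, taken as C at the TSS followed by at least 4 bases of C or T, was found at 54 of 77 members, 70.1% (58.6 to 80.0%), and at 4.59% of all coding genes. Of the strong members shown above, RPS29 and RPS12 have a long tract, whereas RPL15 has none at the annotated TSS. Of the weak ones RPL13, RPS27 and RPL41 have one and RPL4 has not. Of the members shown that had no peak, RPS3 has one and RPL39L has not, and in RPL23 the pyrimidine run ends at the annotated TSS itself. In RPL4 and RPL15 pyrimidine stretches lie within 20 bases of the annotated start. With a run of 8 pyrimidines that overlaps the 5 bases on either side of the TSS as the criterion, 79.2% of members and 11.3% of all coding genes had one. None of the 4 paralogs RPL3L, RPL10L, RPL39L and RPS27L had a TOP start.

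Of the 77 members, 59 had a promoter peak in both lists, that is a peak that reaches within 1 kb of a TSS of the gene. This was 76.6% (65.6 to 85.5%) beside 65.3% of all coding genes. A promoter peak in Dox alone was found at 10 members, 13.0% (6.41 to 22.6%) beside 5.85% of all coding genes. A peak in No Dox alone was found at 3 members, 3.90% (0.811 to 10.97%) beside 3.92% of all coding genes. No promoter peak in either list was found at 5 members, 6.49% (2.14 to 14.5%) beside 24.9% of all coding genes. Without the 4 paralogs, 58 of 73 members had a peak in both lists and 3 had none. The share with a peak in both lists lay above the background of all coding genes, and the members absent from both lists were fewer than at that background.

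The 10 members with a promoter peak in Dox alone included RPL3, RPL11, RPL12, RPL17, RPL19, RPL29, RPS2, RPS10 and RPS28. Their folds over background, the authors' ratio of the signal at the peak summit to the background, ran from 3.16 in RPS10 to 5.43 in RPL19. These lie in the lower part of the Dox list, between percentiles 2.27 and 26.8 of the coding genes with a promoter peak there. RPL19, a protein of the large subunit that helps bridge to the small one, had a Dox peak of 575 bp with its summit at -15 bp from the TSS, that is upstream of it, and its nearest No Dox peak was 12.7 kb away. RPL3, which lies near the peptidyl transferase centre where peptide bonds form, had a Dox fold of 4.07 over 504 bp, and its nearest No Dox peak was 8.26 kb away. RPS2, which lines the channel where mRNA enters the ribosome, had a Dox fold of 4.97, and RPL11, a partner of the 5S ribosomal RNA and a binder of MDM2, had one of 4.75.

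RPL17, a protein near the peptide exit tunnel, and RPL29 both had a Dox fold of 3.62. RPS28, which sits where mRNA leaves the ribosome, had a Dox fold of 4.07. The Dox peak of RPL12, a protein at the base of the ribosomal stalk, had a fold of 4.97, with its summit at -1212 bp from the canonical TSS, toward LRSAM1, the coding gene that starts there in the opposite direction. A second, weaker Dox peak of RPL12, with a fold of 4.52, covered the canonical TSS. RPS28 also shares its promoter region, with NDUFA7, a subunit of mitochondrial complex I. These 10 members thus had weak peaks in one list, and the No Dox list, though longer, had none within 1 kb of them. When peaks had to lie at the canonical TSS, RPL6 joined these 10, with a Dox fold of 4.07 at that site and no No Dox peak within 9.08 kb, since its peak in both lists, of 9.27 in Dox and 10.4 in No Dox, lies at an alternative TSS upstream.

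The 3 members with a promoter peak in No Dox alone were RPL32, RPS16 and RPL10L. RPS16, whose tail reaches toward the tRNA in the small subunit, had a No Dox fold of 6.35 with its summit at -70 bp from the TSS, and its nearest Dox peak was 4.64 kb away. RPL32 had a No Dox fold of 5.72, and its nearest Dox peak was 10.9 kb away. RPL10L, the testis paralog of RPL10, had a No Dox fold of 3.39. The values of RPL32 and RPS16 are above those of every member found in Dox alone, though the 2 lists have their own backgrounds.

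RPS3, RPS21, RPL23, RPL3L and RPL39L had no promoter peak in either list. RPS3 forms part of the mRNA entry channel and is also known as a DNA repair protein, and its nearest peaks were 11.4 kb away in Dox and 28.7 kb in No Dox. RPL23 had its nearest peak 15.6 kb away in both lists, and RPS21 had its nearest 8.55 kb away in Dox and 19.8 kb in No Dox. RPL3L, the paralog of RPL3 used in striated muscle, and RPL39L, the testis paralog of RPL39, had their nearest Dox peaks at 4.63 kb and 4.33 kb. Of the 4 paralogs only RPS27L, a p53-responsive relative of RPS27, had a promoter peak in both lists, with folds of 4.29 in Dox and 6.14 in No Dox. The parent genes RPL10 and RPL39 had peaks in both lists and RPL3 in Dox alone, so each tissue-restricted paralog had fewer peaks than its parent.

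**Figure D1:**
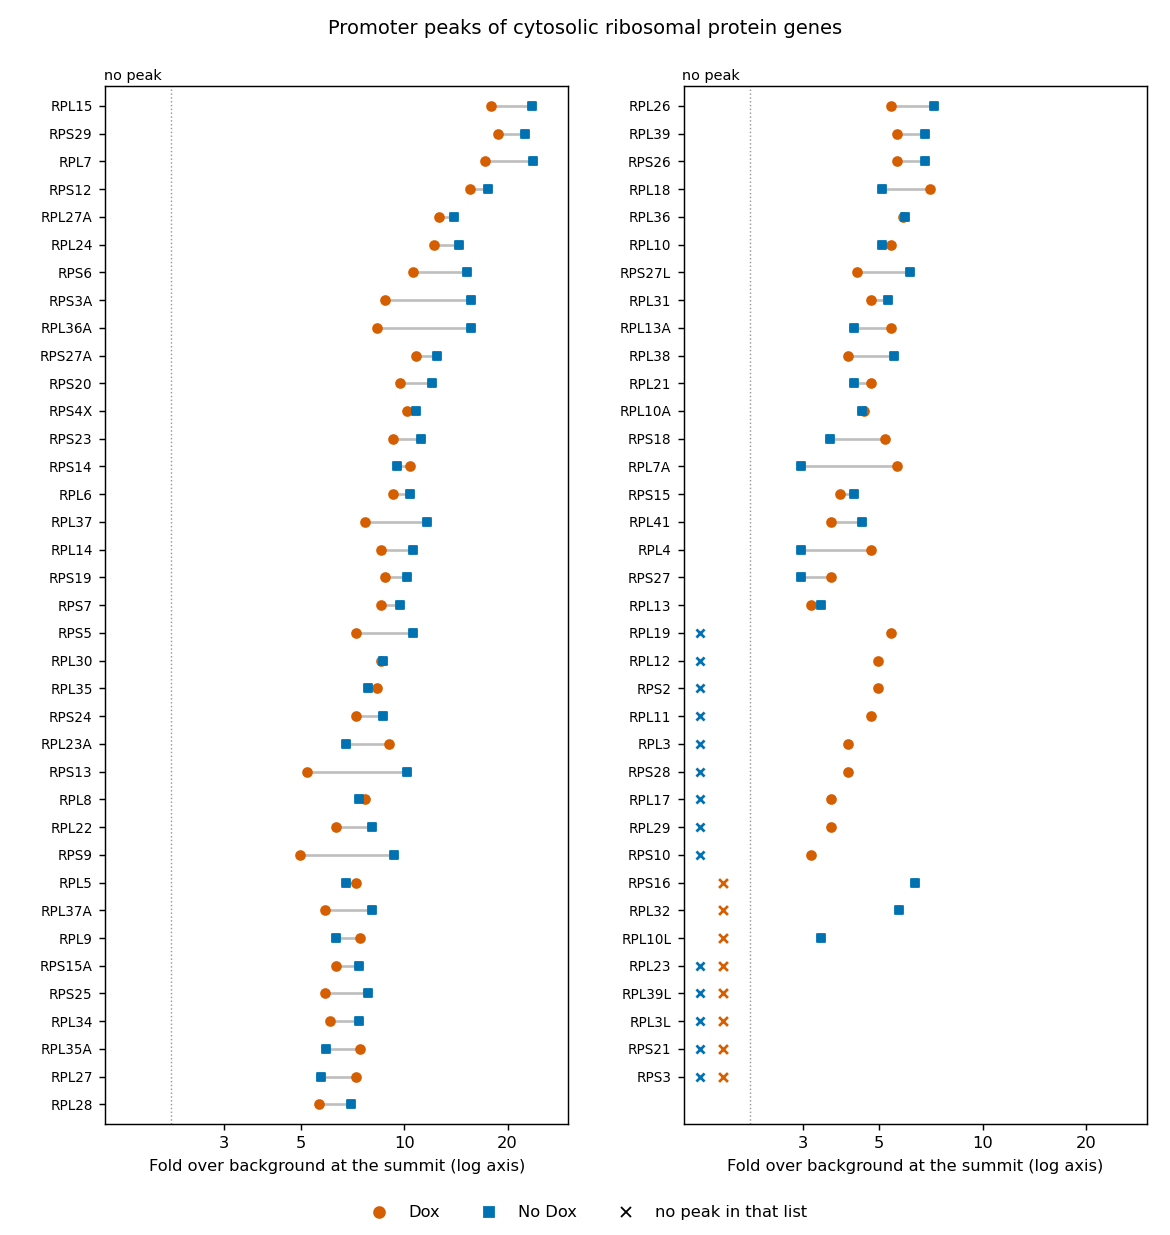
Fold over background at the summit of the strongest promoter peak (log axis) of 73 of the 77 ribosomal protein genes, with circles for Dox, squares for No Dox and crosses where a list has no promoter peak. Genes with a peak in both lists come first, by mean fold, from RPL15 down to RPL13, and are followed by those found in Dox alone, 3 in No Dox alone and 5 in neither.

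Among members with a promoter peak, few peaks were among the strongest. The median lay below that of other coding genes, though by more than its interval only in Dox. The median fold was 6.10 over 69 members in Dox and 7.41 over 62 members in No Dox, beside 7.69 and 8.47 over all coding genes with a promoter peak. As percentiles of those coding genes, the median member stood at 34.1 in Dox and 43.4 in No Dox, where all coding genes stand at 49.1 and 50.6. The interval of the median percentile was 26.8 to 47.3 in Dox and 36.9 to 55.9 in No Dox. The latter includes the 50.6 of all coding genes. Below percentile 20 lay 24.6% of the members in Dox and 17.7% in No Dox, beside 20.8% and 20.4% of those coding genes. Above percentile 90 lay 2.90% and 4.84% of the members, beside 10.0% and 9.92%. Peaks were also narrower, with a median width of 761 bp in Dox and 845.5 bp in No Dox, beside 1020 and 1068 bp over all coding genes with a promoter peak. The percentiles of the 59 members found in both lists followed each other, with Pearson's r of 0.86 and Spearman's rho of 0.85 across genes, as did those of all coding genes with r of 0.89. Both lists share the sequence of each promoter, and the genes are not independent replicates.

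The strongest promoter peaks, by the mean of both percentiles, were led by RPS29, RPL15, RPL7 and RPS12. RPS29, a small zinc-binding protein, had a fold of 18.8 in Dox and 22.5 in No Dox, at percentiles 91.4 and 90.8. RPL15, a large-subunit protein, had folds of 17.9 and 23.5, and RPL7 had folds of 17.2 and 23.7. RPS12 had folds of 15.6 and 17.6. All 4 thus lay between percentiles 83.7 and 92.2 in both lists, while RPL15 and RPL7 share their promoter region with NKIRAS1 and RDH10, which start on the other strand. RPL7 and RPS12 also had the widest peaks by the mean of both lists, with 2405 and 922 bp in Dox and 2734 and 2405 bp in No Dox.

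The weakest promoter peaks found in both lists belonged to RPL13, RPS27, RPL4, RPL41 and RPS15. RPL13 had a fold of 3.16 in Dox and 3.39 in No Dox, at percentiles 2.27 and 5.98. RPS27, a zinc-finger protein of the small subunit, had folds of 3.62 and 2.97, and RPL4, which lines the peptide exit tunnel, had folds of 4.75 and 2.97. RPL41, the smallest of the ribosomal proteins, had folds of 3.62 and 4.45, and RPS15 had folds of 3.84 and 4.24. The weakest and the strongest member had counting intervals that did not overlap, but both were picked by these same folds, so this is a description and not a test. The pileup at the summit, the number of reads stacked there as recovered from the steps of the folds if the peak caller added 1, was 13 in Dox for RPL13 (6.92 to 22.2) and 82 for RPS29 (65.2 to 101.8). RPS15 also had 1 of the narrowest peaks, with 421 bp in Dox and 305 bp in No Dox, as did RPL38 at 407 and 420 bp.

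The median small-subunit promoter stood higher than the median large-subunit promoter. The median percentile of fold was 45.3 in Dox and 58.2 in No Dox over 28 and 25 RPS members with a peak, and 31.8 and 38.5 over 41 and 37 RPL members. The shares with a peak in both lists were alike, 24 of 31 RPS genes and 35 of 46 RPL genes. Members with a TOP start had a peak in both lists at 46 of 54, 85.2% (72.9 to 93.4%), and those without one at 13 of 23, 56.5% (34.5 to 76.8%). The intervals overlap, and the 23 include the 4 paralogs. Of 26 members that host a small nucleolar RNA in their introns, 18 had a peak in both lists, beside 41 of the other 51.

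Genes grouped by role varied in the same range. A peak in both lists was found at 76.6% of all members and 65.3% of all coding genes. For each group counted in this and the next paragraph, the interval of its share included both values. All 9 listed genes of Diamond-Blackfan anaemia, an inherited failure of red cell production, had a Dox promoter peak, as did 89.6% of all members and 71.1% of all coding genes, and 7 had one in both lists, with RPS10 and RPL11 found in Dox alone. RPS19, the first of them to be tied to the disease, had folds of 8.82 in Dox and 10.2 in No Dox. Of 5 members known to bind MDM2, RPL5, RPL26 and RPS7 had a peak in both lists, RPL11 in Dox alone and RPL23 in neither. RPL5, the partner of RPL11 on the 5S RNA, had folds of 7.23 and 6.78. Of the pair at the mRNA entry channel neither had a peak in both lists, since RPS2 had a peak in Dox alone and RPS3 had none.

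Of 6 members at the peptide exit tunnel, 5 had a peak in both lists and RPL17 had one in Dox alone. RPL39, which lines that tunnel, had folds of 5.65 in Dox and 6.78 in No Dox. RPL10, which completes the site where peptide bonds form, had folds of 5.43 and 5.08. All 4 X-linked members, RPS4X, RPL10, RPL36A and RPL39, had a peak in both lists (39.8 to 100%), beside 76.6% of all members. RPS4X, which has a partner gene on the Y chromosome, had folds of 10.2 and 10.8. RPS14, whose loss underlies the anaemia of the 5q deletion syndrome, had folds of 10.4 and 9.53.

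RPS6, the substrate of the S6 kinases downstream of mTOR, had folds of 10.6 in Dox and 15.3 in No Dox. RPS27A, made as a fusion with ubiquitin, had folds of 10.9 and 12.5 and shares its promoter region with CLHC1. RPL13A, which is also known to silence translation of inflammatory mRNAs when released from the ribosome, had folds of 5.43 and 4.24.

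Other gene lists of protein synthesis and turnover were set beside the members. Mitochondrial ribosomal proteins had a promoter peak in both lists at 63 of 78 genes, with a median percentile of 45.3 in Dox and 48.5 in No Dox. Proteasome subunits did so at 35 of 39, with median percentiles of 43.1 and 41.8, and ribosome assembly factors at 24 of 26, with 45.3 and 41.8. The 16 translation factors and other genes known for a 5′ TOP stood highest, with a peak in both lists at 15 and median percentiles of 78.1 and 74.7. The 11 cytosolic ribosomal proteins that the symbol rule leaves out, such as RPLP0 and RPSA, had a peak in both lists at 10 and median percentiles of 45.3 and 43.98. In Dox the median of the members lay below those of all 5 lists, and in No Dox it lay between them, with 2 below it. Narrow peaks were not particular to the members. In Dox and No Dox, median widths were 814.5 and 773 bp for the proteasome and 893 and 858.5 bp for mitochondrial ribosomal proteins. They were 877 and 924 bp for assembly factors, 863 and 831 bp for the 11, and 1386 and 1443 bp for the 16. Above percentile 90 lay 0% of the proteasome and of the 11 in both lists. Mitochondrial ribosomal proteins had 5.63% and 4.69% there, assembly factors 4.0% in both, and the 16 had 12.5% and 13.3%. Those of the 16 were EIF3E, at 99.8 and 99.6, and PABPC1, at 97.3 and 92.7, both on chromosome 8. The 4 members on chromosome 8 also stood high, with median percentiles of 59.8 and 60.4. Without chromosomes 1, 5, 8 and 9 the members had medians of 31.8 and 40.1. The part of the chromosome in these values was not tested.

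**Figure D2:**
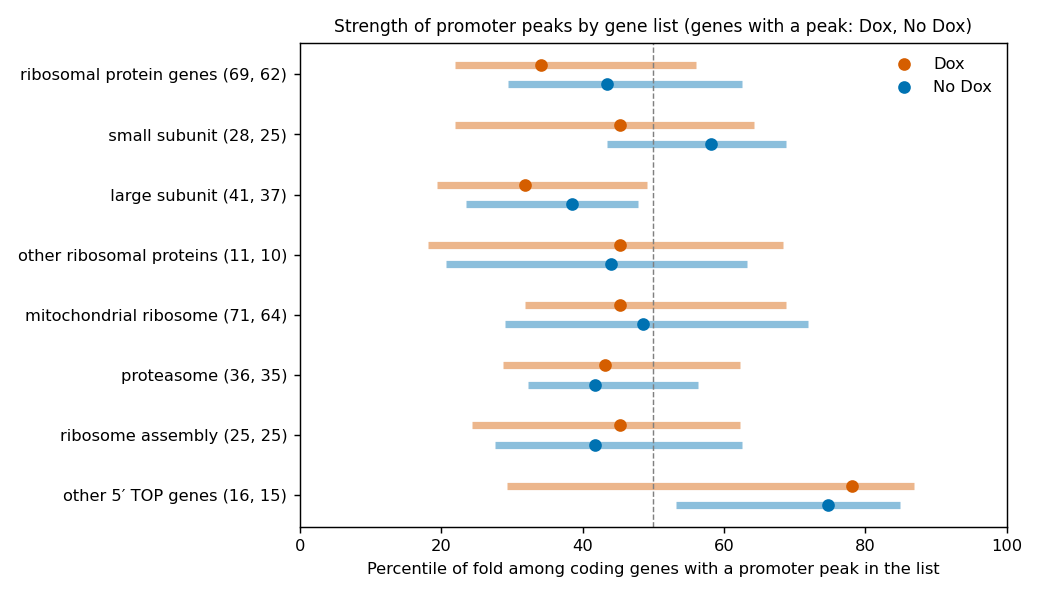
Percentile of fold among all coding genes with a promoter peak in the same list, for the ribosomal protein genes, both subunits and 5 other gene lists, with points for medians, bars from the lower to the upper quartile and the number of genes with a peak in Dox and No Dox in parentheses. The ribosomal protein genes have medians of 34.1 in Dox and 43.4 in No Dox, and the other 5′ TOP genes have 78.1 and 74.7.

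The summits of the member peaks lay mostly upstream of the TSS. The median distance from the canonical TSS was -108 bp over 69 members in Dox and -127.5 bp over 62 in No Dox, where negative values are upstream, beside -48 and -49 bp over all coding genes. The summit was upstream at 87.0% of members in Dox and 85.5% in No Dox, beside 61.0% and 61.5% of all coding genes with a promoter peak. Upstream summits were not particular to the members. In Dox and No Dox the summit was upstream at 88.0% and 84.0% of assembly factors and 87.5% and 86.7% of the 16. It was upstream at 90.9% of the 11 in Dox. Shares were lower for mitochondrial ribosomal proteins, at 70.4% and 70.3%, and for the proteasome, at 69.4% and 57.1%. Within 150 bp of the TSS lay 59.4% of the member summits in Dox and 51.6% in No Dox, beside 48.8% and 49.5% over all coding genes. RPS29 had its summits at -176 bp in Dox and -181 bp in No Dox, RPS12 at -176 and -171 bp, and RPS6 at -80 and -121 bp. The upstream position was thus seen in both lists, and in members of both subunits, with medians of -92.5 bp for RPS and -109 bp for RPL genes in Dox. From the nearest TSS of any transcript the median was -79 bp in both lists.

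The summit lay over 1 kb from the canonical TSS at 4 members in Dox and 3 in No Dox. At RPL27A the strongest promoter peak, of 12.7 in Dox and 14.0 in No Dox, lay 6296 and 6284 bp downstream of the canonical TSS, and the peak at the canonical TSS itself had folds of 7.01 and 11.4. At RPL36 the strongest peak was at -9659 and -9348 bp from the canonical TSS, and the peak at that TSS had folds of 4.29 and 3.18. RPL6 and, in Dox alone, RPL12 make up the rest.

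**Figure D3:**
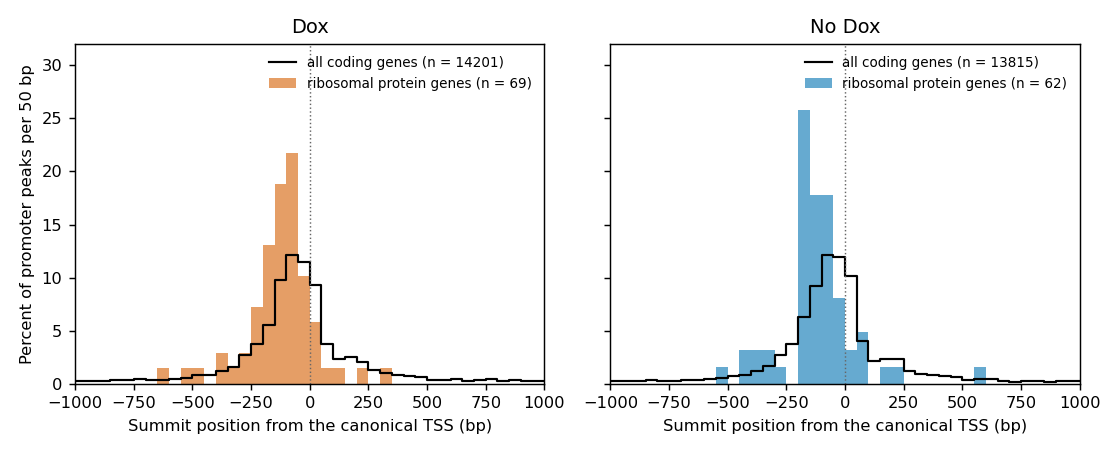
Share of promoter peak summits per 50 bp of distance from the canonical TSS (bp, negative upstream), with bars for the ribosomal protein genes and a line for all coding genes, in Dox on the left and No Dox on the right. Bars crowd between 200 bp upstream and the TSS in both lists, around the medians of -108 and -127.5 bp, and summits beyond 1 kb are not drawn.

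Dox and No Dox folds were compared at the 59 members with a peak in both lists. Since each list has its own background, the log2 ratio of Dox to No Dox was centred on its median over 13033 coding genes, which was -0.11. The median centred log2 ratio of the members was -0.096, with quartiles of -0.24 and 0.18, beside quartiles of -0.24 and 0.27 over all coding genes. It was 0.070 when the ratio was centred on the 10% of coding promoters with the highest folds, so its sign depended on the centring. Past 1.5-fold, 3 of the 59 members were higher in Dox, beside 7.88% of coding genes, and 4 were lower, beside 4.87%. The spread of the members was thus close to that of other promoters, and the other 52 members lay within 1.5-fold.

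The 3 members higher in Dox were RPL7A, RPL4 and RPS18. RPL7A had folds of 5.65 in Dox and 2.97 in No Dox, a centred log2 ratio of 1.04 (0.057 to 2.18). RPL4 had folds of 4.75 and 2.97, a ratio of 0.79 (-0.25 to 1.95), and RPS18, a protein at the head of the small subunit, had 5.20 and 3.60, a ratio of 0.64 (-0.33 to 1.69). At RPL7A the Dox peak stopped 109 bp from the nearest TSS of the gene, whereas the No Dox peak covered a TSS. At RPL4 the No Dox peak stopped 87 bp from the nearest TSS, whereas the Dox peak covered one. The ratios of RPL7A and RPL4 thus compare peaks placed differently, which the counting intervals do not cover. RPL18, at 0.57, and RPL23A, at 0.53, lay just inside 1.5-fold. With q-values of at most 1e-05 none of the 3 kept a peak in both lists and RPL18, at 0.59, was the only member past 1.5-fold, and with lists of equal length RPS18, at 0.65, was the only one. Each of the 3 shares its promoter region with a coding gene that starts on the other strand within 1 kb, namely MED22, ZWILCH and VPS52, as do 13 members in all. Of the 11 such members with a peak in both lists the 3 were higher and 0 lower, and of the other 48 members 0 were higher and 4 lower. Over all coding genes with a peak in both lists, 7.88% were higher and 4.87% lower. The shares for coding genes with and without such a partner were not computed, so these counts have no matching background. The part of the neighbouring genes in these values was not tested.

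The 4 members lower in Dox were RPS13, RPL36A, RPS9 and RPS3A. RPS13 had folds of 5.20 in Dox and 10.2 in No Dox, a centred log2 ratio of -0.86 (-1.69 to -0.13). RPL36A had folds of 8.36 and 15.7, a ratio of -0.80 (-1.43 to -0.22), and RPS9 had 4.97 and 9.32, a ratio of -0.80 (-1.66 to -0.046). RPS3A had folds of 8.82 and 15.7, a ratio of -0.72 (-1.34 to -0.15). RPL37, at -0.49, lay just inside 1.5-fold. The intervals of all 4 lay below 0 and that of RPL7A above it, while those of the other 54 members included 0 before any correction for 59 comparisons. All are counting intervals of pooled data, so whether replicates would repeat these differences cannot be seen.

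**Figure D4:**
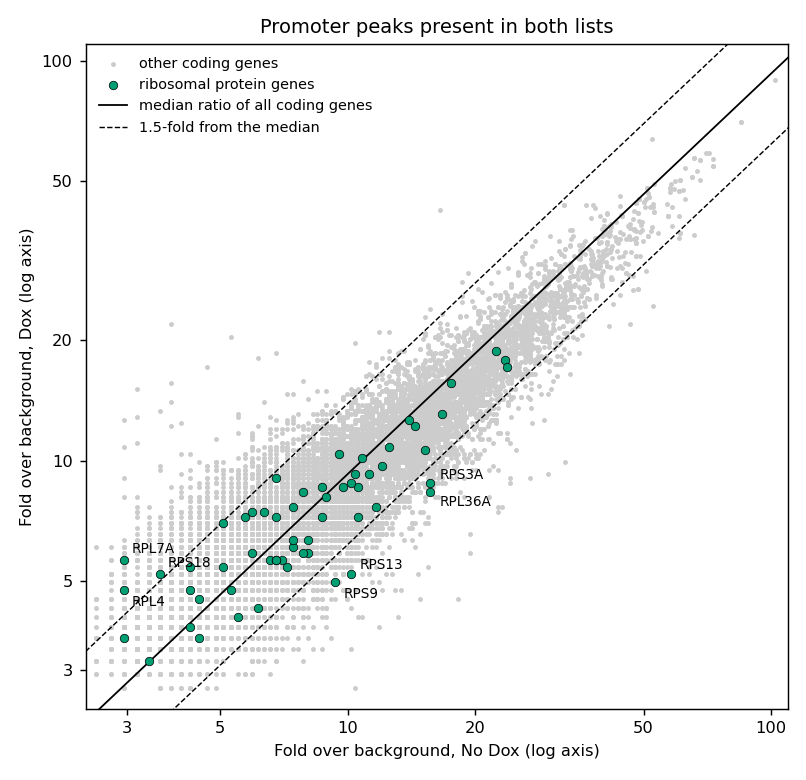
Fold over background of promoter peaks in No Dox (horizontal, log axis) and Dox (vertical, log axis) for 59 ribosomal protein genes in green and the other coding genes with a peak in both lists in grey. The solid line marks the median ratio of all 13033 coding genes and the dashed lines 1.5-fold on either side, beyond which 3 members lie above and 4 below, as named.

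Ratio and strength were not independent. Across the 59 members the mean percentile and the centred ratio had Pearson's r of -0.41 and Spearman's rho of -0.39, and across all coding genes with a peak in both lists r was -0.32. Both measures are made from the same folds. Lower mean percentiles thus tended to go with higher ratios, in the members as in other genes. This did not hold for every weak member. RPL7A, RPL4 and RPS27, at 2.97 in No Dox, had ratios of 1.04, 0.79 and 0.40. RPL13, at 3.39, had 0.011 and RPL41, at 4.45, had -0.19. Width and percentile had r of 0.70 across members and 0.61 across all such coding genes, and GC content of the promoter and percentile had r of 0.0082 and 0.044.

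Promoter sequences were searched from 250 bp before to 50 bp after the canonical TSS, on both strands unless stated. The ETS word CCGGAAG was found in 27 of 77 members, 35.1% (24.5 to 46.8%), beside 14.1% of all coding genes and 18.5% of those with a peak in both lists. The YY1 word AAGATGGC was found in 10 members, 13.0% (6.41 to 22.6%), beside 4.06% of all coding genes. In 9 of these 10 it lay wholly after the TSS, as it did in 62.7% of the coding genes that hold it, and in 4 of the 10 it covered the annotated start codon, beside 40.5% of those coding genes. The palindrome CTCGCGAG was found in 7 members, among them RPL4, RPL17, RPL26, RPL27A, RPS6 and RPS19, 9.09% (3.73 to 17.8%) beside 1.47% of all coding genes.

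For the NRF1, SP and KLF, CCAAT, E-box and TATA words the share of all coding genes lay inside the interval of the members. The NRF1 word GCATGCGC was found in 6 members, among them RPS29, 7.79% (2.91 to 16.2%) beside 4.24%. The SP and KLF word GGGCGG was found in 62.3% of members and 61.3% of all coding genes, CCAAT in 29.9% and 36.0%, and the E-box CACGTG in 6.49% and 8.75%. A TATA box, TATAAA on the gene's strand 40 to 20 bp before the TSS, was found in 3 members, RPS2, RPS28 and RPL10L, at 3.90% beside 3.95%. Each of these 3 had a promoter peak in only 1 of the lists, and RPL10L is a paralog. Of the 789 coding genes with this TATA box, 268 had a peak in both lists, beside 13033 of all 19962 coding genes. Members had a median GC content of 60.0% in this window, beside 63.7% over all coding genes.

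The words of TEAD, the DNA-binding partner of TAZ, and of AP-1 were rare in the members and in all coding genes. For both, the share of all coding genes lay inside the interval of the members. GCATTCC or ACATTCC was found in the promoter window of 3 members, RPL6, RPL7A and RPS27A, 3.90% (0.811 to 10.97%) beside 5.05% of all coding genes. Within 100 bp of the summit it was found at 0 of 69 members in Dox, which allows up to 5.21%, and at 0 of 62 in No Dox, which allows up to 5.78%, beside 4.31% and 3.18% of all coding genes with a promoter peak. The AP-1 words TGAGTCA and TGACTCA were found in the window of RPL24 alone, at 1.30% (0.033 to 7.02%) beside 3.58%. The reversed TEAD words CCTTACG and CCTTACA, searched as a control without a known factor, were found in 8 members, 10.4% (4.59 to 19.4%), beside 2.49%. The control word thus stood above its background by a larger factor than the ETS and YY1 words did.

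**Figure D5:**
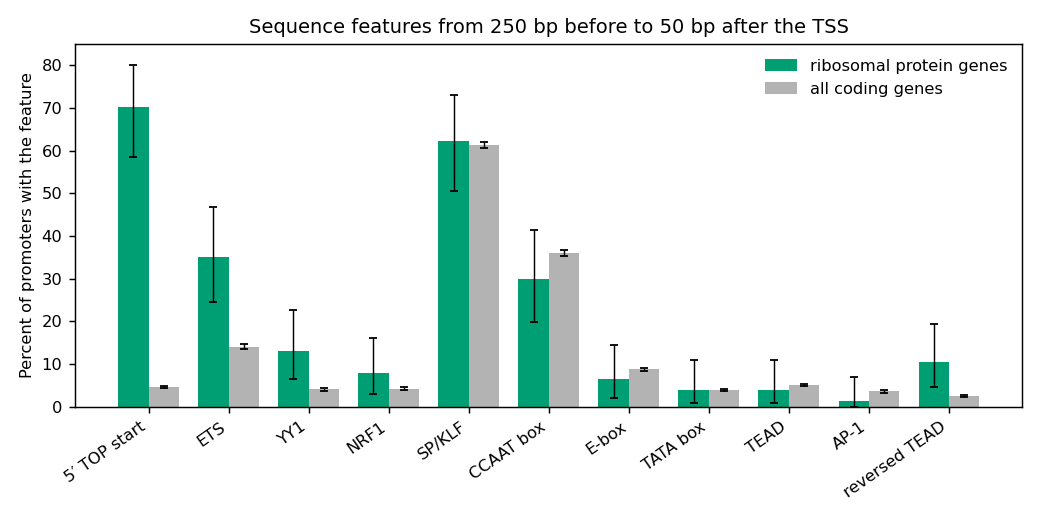
Percent of promoters that hold each sequence feature, with bars for the 77 ribosomal protein genes in green and all 19962 coding genes in grey, and exact 95% intervals that cover counting error only. The 5′ TOP start stands at 70.1% beside 4.59%, ETS at 35.1% beside 14.1%, and the reversed TEAD control at 10.4% beside 2.49%.

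The lists held 84353 peaks in Dox and 117740 in No Dox, whereas promoter peaks were found at more coding genes in Dox, 14201, than in No Dox, 13815. The labelled cell type was checked by promoter peaks of marker genes. Of 9 epithelial markers, 7 had a promoter peak in both lists, TP63 in Dox alone and KRT14 in neither. All 3 fibroblast markers, COL1A1, COL1A2 and PDGFRB, had one in both lists, 0 of 3 endothelial markers had any, and of 3 immune markers CD79A had one in Dox alone, PTPRC in No Dox alone and CD3E in neither. Of all coding genes, 65.3% had a promoter peak in both lists, so counts over so few markers cannot settle the cell type. Open promoters of fibroblast genes were present beside the epithelial ones in both conditions, and their part in the values of the members was not tested.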

How the data were processed

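Accessibility in TAZ-4SA-transduced MCF10A cells was read from the deposited peak lists, 1 for No Dox and 1 for Dox. BWA was used by the authors for alignment to hg38 and MACS2 for peaks, with an FDR limit of 0.05 and the 2 biological replicates of a condition combined. Versions are not given in the sources used here. Column values were used as deposited: the fold enrichment at the summit, a ratio of signal to background made by the authors, the −log10 q-value that the authors' peak caller gave, and the offset of the summit, another position value in the deposited lists. The lists hold no columns that compare the conditions. Folds rose in steps of 0.226 (Dox) or 0.212 (No Dox), to which every value kept with a tolerance of 0.01 steps, and pileups were recovered from these steps. Depth per sample is unknown, and low peaks rest on few reads, 12 steps at the lowest fold in either list.

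Transcript starts came from GENCODE release 44, and 60 of 77 members had a RefSeq promoter entry in GRCh38.p14. A peak belonged to a gene when it reached within 1000 bp of the TSS of any of its transcripts, and the peak of the highest fold was described. Percentiles are mid-ranks among coding genes with a promoter peak in that list. Log2 ratios of Dox to No Dox were centred on the median of 13033 coding genes and called past 1.5-fold. Ratio intervals treat both pileups as counts.

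The members, gene lists and words were chosen with earlier results of these data known. Genes were named by a rule: all members without a peak in 1 or both lists, the 5 highest and 5 lowest by mean percentile and by ratio, the 3 widest and 3 narrowest, and a list of 18 members chosen for their roles, while others stand where a count or position needed them. With 1 list per condition no p-value was computed. Alternatives were q-values of 0.01 and 1e-05, windows of 250 and 3000 bp, other choices of transcripts, of the peak and of its summit, lists of equal length, other members, other chromosomes, other centrings, folds of 1.25 and 2, and wider sequence windows. The steps were tested on simulated data. Python 3.11.15, numpy 2.4.6, pandas 2.3.3, scipy 1.17.1, pysam 0.24.0, samtools 1.23.1 and matplotlib 3.10.9 were used. The values of some genes that the rule names are not reported here, though these genes stay in all counts and medians. The RNA-seq and ChIP-seq of the study were not analysed here.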

Additional observations from a re-analysis of the deposited data

How the results depend on the processing

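Of 177 repeats of the summary values under other settings, 162 stayed within the counting interval of the value or within 1.5 times the count, and 15 moved. The 331 repeats that gave a value for a single named gene all stayed, but a gene that lost a peak gave none. Most of these repeats kept the same peaks of the gene and changed only the centring. That they stayed was thus nearly given in advance and says little about single genes. With q-values of at most 1e-05, 12 members had no promoter peak, and leaving out the 4 paralogs left 3. Without the 17 members that start within 1 kb of another coding gene on either strand, readthrough genes included, the number in Dox alone was 6 of a smaller set. The number higher in Dox moved most: 1 with q-values of at most 1e-05 (RPL18, since RPL7A, RPL4 and RPS18 lost a peak), 1 with lists of equal length (RPS18, since RPL7A and RPL4 lost a peak), 0 without the same 17 members, 8 when centred on the strongest 10% of promoters, 10 past the smaller of the other folds and 1 past 2-fold. The number lower in Dox was 11 past the smaller fold and 0 past 2-fold. The shares over all coding genes under these settings are not given here, so these counts cannot be read against that background. The median log2 ratio was -0.21 without centring and 0.070 when centred on the strongest 10%, where its sign turned. The median summit distance was -79 bp in Dox and -79 bp in No Dox from the nearest TSS of any transcript. The cause of these shifts was not tested beyond what each alternative leaves out. No paired analysis was possible because the authors pooled the replicates of each condition before peak calling. No replicate could be left out for the same reason. Peaks near the lowest fold rest on few reads, so a missing peak at this depth does not show closed chromatin.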
